A study of Mus musculus with 6 samples.

Results

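The miR-297, miR-466, miR-467 and miR-669 families are groups of near-identical rodent microRNAs (miRNAs), small RNAs that pair with messenger RNAs through a short seed at their 5′ end. Most of their hairpins lie in 1 intron of Sfmbt2, a Polycomb-related gene that is imprinted and best known, like the cluster itself, from the placenta. Each hairpin is cut into a 5p and a 3p arm, and because copies of the hairpin repeat the same arm sequence, 1 read can match several names. The members were every name in the deposited count table that starts with one of these family names followed by a letter or an arm, 59 of 707 names in all. The miR-466 family held 25 of them, miR-669 20, miR-467 10 and miR-297 4.

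The study sequenced small RNA of exosomes, the vesicles that cells release, taken from culture supernatants of bone marrow-derived macrophages. One group was wild type (WT) and the other carried the Roquin-1 san:san genotype, each with 3 libraries, and the strain of both was C57BL/6. San:san denotes both copies of the sanroque allele of Roquin-1, a protein that binds messenger RNAs and targets them for decay. The labels give no treatment or age and do not state if replicates are different mice or cultures. The p-values therefore reflect only how far these samples spread, and that spread may be technical. Relative counts cannot tell fewer exosomes of one source from less of a miRNA in each exosome.

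The WT libraries were shallow, with 12447 to 28884 deposited counts, and the san:san libraries held 126098 to 185901, so depth and genotype move together. A single count was worth 29.3 to 74.0 CPM (a count rescaled to a common library size, here by the TMM method, which trims the most divergent miRNAs) in WT and 6.85 to 10.8 in san:san. The 6 macrophage and myeloid marker names were detected in both genotypes. Their summed level ran from 40817 to 51768 CPM for WT and from 117240 to 148535 CPM for san:san. Markers of other cell types were present too, and no marker name on these lists was at 0 in all libraries of a genotype. The 5 erythroid names summed to 24627 to 39075 CPM for WT against 126572 to 162582 CPM for san:san. The lymphocyte miRNA miR-150-5p was at 3463 to 4363 and 18737 to 24518 CPM, and the 2 endothelial names summed to 15405 to 33945 and 45859 to 88617 CPM. The 3 stromal names summed to 2958 to 5223 and 4726 to 5943 CPM, and the liver miRNA miR-122-5p was at 4268 to 6434 and 5716 to 7353 CPM. The part of these cell types in the results below was not tested.

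RefSeq's table of the GRCm38.p6 build gave a mature sequence for 4 of the 59 names. They are shown for their repeats of CA or GU, and each comes from a hairpin outside Sfmbt2. The seed, bases 2 to 8 from the 5′ end, is in capitals.
miR-466i-3p: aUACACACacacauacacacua
miR-466j: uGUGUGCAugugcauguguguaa
miR-466q: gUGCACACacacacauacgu
miR-467g: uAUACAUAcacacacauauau
The first lies at chr13:17747552-17747573 on the plus strand, miR-466j at chr10:60960802-60960824 (plus), miR-466q at chr3:28419988-28420007 (plus) and miR-467g at chr5:34732872-34732892 (minus). No seed is shared among these 4. The run CACACAC is in 3 of them. miR-466j instead alternates G and U in stretches broken by CA, and holds neither CACACAC nor GUGUGUG. A run of GUGUGUG or CACACAC, searched in the mature strand only, occurs in 9 of the 573 names in the table that have a RefSeq sequence (1.57%). All 4 were near the limit of detection. miR-466i-3p had 0, 3 and 0 counts in the WT libraries against 1, 1 and 1 for san:san, miR-466j had 1 count in each genotype, miR-466q 1 count in WT and miR-467g 1 in san:san.

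In the RefSeq annotation of GRCm38.p6, 72 of 82 hairpin genes of the 4 families lay inside Sfmbt2 on chromosome 2. They comprised 29 of miR-669, 24 of miR-466, 14 of miR-467 and 5 of miR-297. No exon of Sfmbt2 in the GENCODE annotation lay between the first and the last of them. Names matched only to hairpins outside Sfmbt2 were 5, and together they held 2, 6 and 4 counts in the WT libraries against 1, 2 and 2 for san:san. Rows whose matched names all lay inside it held 84, 194 and 180 counts for WT against 214, 229 and 190 for san:san, and therefore made up most of what was measured. Neither miR-466a-3p nor miR-466a-5p matched a hairpin, and each shares its row with a name that lay inside.

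Many names held the same reads. With names of 1 family and arm that were identical in all 6 libraries merged, 46 rows remained. If all rows that happened to hold the same few counts were merged, whatever their family or arm, 40 remained. The names miR-466b-3p, miR-466c-3p and miR-466p-3p formed 1 row, as did miR-466a-3p with miR-466e-3p and miR-669a-3p with miR-669o-3p. The first 2 of these rows had the same counts in every san:san library and differed by 5 counts in WT replicate 1 and by 1 in WT replicate 3. They are therefore not independent of each other, and the value of a single member is uncertain.

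Across all 4 families, the merged rows held 90, 206 and 201 counts in the WT libraries against 223, 244 and 204 in those of san:san. Scaled to library size, this was 6656, 6045 and 7870 CPM for WT and 1528, 1848 and 2204 CPM for san:san. The families were thus at 6857 ± 929 CPM for WT and 1860 ± 338 CPM for san:san (SD, n = 3 per genotype throughout), 3.69-fold lower in san:san, and every WT library lay above every san:san library. As a share of the counts left after merging identical names they made up 0.808% ± 0.125 in WT and 0.154% ± 0.0238 in san:san. These sums and shares hold both overlapping miR-466 3p rows, so shared reads may count more than once. With the highest row of each family and arm in place of the sum, the log2 difference was -1.80, against -1.88 with the sum.

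By summed CPM, the 3p arms of miR-466 were the most abundant group of the 4 families. They were at 3254, 2083 and 2937 CPM for WT and at 692, 795 and 864 CPM for san:san, with no overlap and a 3.52-fold difference in means. The sum holds both overlapping miR-466 3p rows, with WT means of 1103 and 967 CPM, so shared reads may count more than once. Its rank above the miR-669 3p arms may rest on that overlap. The highest single row in WT was miR-669a-3p, with a mean of 1383 CPM. miR-466 5p arms were at 370, 264 and 744 CPM for WT against 20.6, 30.3 and 108 CPM for san:san, which rests on 33 counts in WT and 17 in san:san. The log2 difference of these 5p arms, -3.12, was -4.17 without san:san replicate 3. The 4 miR-466 names with no arm, miR-466g the main one, summed to 222, 264 and 313 CPM for WT and 48.0, 68.2 and 54.0 CPM for san:san.

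The miR-669 3p arms came next, at 1553, 2230 and 2193 CPM for WT against 328.9, 447 and 627 CPM for san:san, a 4.26-fold difference in means. Their 5p arms were at 740, 792 and 1018 CPM for WT against 260.4, 151 and 292 CPM for san:san, a 3.62-fold difference. In both arms of miR-669, and in the 3 miR-466 groups, the lowest WT library lay above the highest san:san library. Among all single tested rows 30.6% had this order, and the share among like sums of other miRNAs was not computed.

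Values of miR-467 and miR-297 lay closer together between the genotypes. miR-467 3p arms were at 370, 205 and 157 CPM for WT and 75.4, 144 and 140 CPM for san:san, so that WT replicate 3 was only just above the highest san:san library. For miR-467 5p arms the genotypes overlapped, at 0, 117 and 196 CPM for WT and 54.8, 129 and 32.4 CPM for san:san. Their log2 difference of -0.54 was 0.29 without WT replicate 3 and -1.26 without san:san replicate 2. miR-297 3p arms overlapped as well, with 148, 58.7 and 196 CPM for WT against 48.0, 75.7 and 86.4 CPM for san:san. The only miR-297 5p name, miR-297a-5p, had 3 WT counts and none in san:san. Whether the families differ from each other in their genotype difference was not tested, and miR-297 rested on 12 counts in WT and miR-467 on 25.

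**Figure D1:**
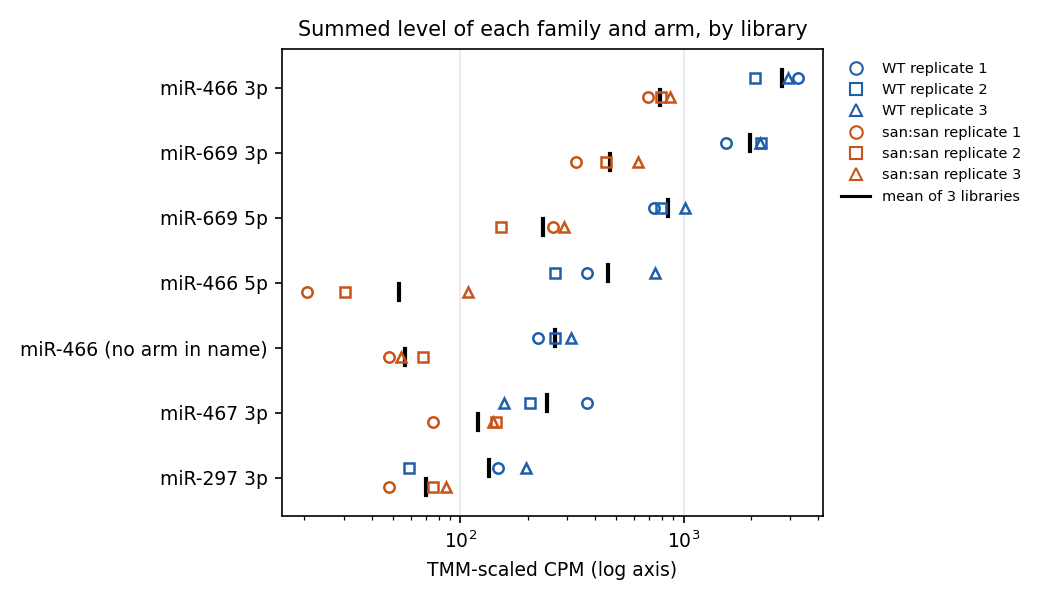
Summed TMM-scaled CPM (log axis) of each family and arm with counts in all 6 libraries, 1 point per library and a bar at the mean of 3 libraries. WT libraries (blue) lie above all san:san libraries (orange) in every group shown but miR-297 3p, and the gap is narrow for miR-467 3p.

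A test of single rows was possible for 9 member rows, which hold 14 of the 59 names; the other 45 names were too low. Of the 9 rows, 8 fell in san:san (edgeR's quasi-likelihood test, adjusted p below 0.05), 0 rose and 1 did not pass. Among all 245 tested rows 29.0% were lower by this rule, and among the 127 with a WT level in the range of these members 33.1% were. Calls over all rows split into 86 higher and 71 lower with TMM but 49 higher and 95 lower with total counts, where all 9 member rows were lower beside 38.8% of all rows. The median log2 change of the 9 rows with TMM was -1.86, beside 0.30 over all tested rows. Passing the filter on low counts bears on this count: 6 of the 9 rows passed through the WT libraries alone, and 85.2% of all rows that did so were lower. Of these 6 member rows all but the miR-467a-3p row were lower, no larger a share than among all such rows. The other 3, the miR-669a-3p row and the 2 overlapping miR-466 rows, passed in both genotypes and were lower, beside 16.9% of all such rows. Any excess of lower member rows over these shares thus rests on 3 rows, of which 2 overlap.

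miR-669a-3p with miR-669o-3p was the most abundant of the 9 member rows in WT. The 3 WT libraries gave 11, 59 and 41 counts and the san:san libraries 37, 47 and 46, which is 813, 1731 and 1605 CPM against 254, 356 and 497 CPM. In log2 terms it fell by 2.02 ± 0.31 (SE; adjusted p = 3.04e-05 in edgeR), or 4.05-fold. WT replicate 1 was the lowest WT library, yet it was above all 3 san:san libraries. In order of mean CPM over all tested rows it was number 79 of 245 in WT and 145 in san:san.

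The 3p row of miR-466a and miR-466e had 20, 25 and 28 counts for WT against 43, 41 and 30 for san:san. Its level of 1479, 734 and 1096 CPM for WT compared with 295, 311 and 324 CPM for san:san, and the san:san libraries lay close together. The row fell (log2 -1.75 ± 0.30, edgeR adjusted p = 9.58e-05). The overlapping row of miR-466b, miR-466c and miR-466p, with 15, 25 and 27 counts for WT, was at log2 -1.60 ± 0.29 (adjusted p = 1.46e-04). miR-466d-3p, at 518, 440 and 587 CPM for WT and 75.4, 159 and 162 CPM for san:san, fell by 1.97 ± 0.45 (adjusted p = 0.00118). Unlike the overlapping rows, miR-466d-3p passed the filter through the WT libraries alone, which favours a fall.

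Within miR-669, miR-669p-3p stood at 370, 352 and 470 CPM for WT and 61.7, 75.7 and 108 CPM for san:san, a fall of 4.93-fold (log2 -2.30 ± 0.45, edgeR adjusted p = 2.97e-04). The one tested 5p arm of this family, miR-669c-5p, was at 370, 381.5 and 626 CPM for WT and 158, 114 and 140 CPM for san:san (log2 -1.75 ± 0.44, adjusted p = 0.00218). The genotypes did not overlap for either row. Each passed the filter through the WT libraries alone, which favours both a fall and this order. Their p-values are to be read with that limit.

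miR-466c-5p had the lowest log2 change of the 9 rows and the fewest counts. With 3, 5 and 8 counts for WT and 1, 2 and 7 for san:san, it was at 222, 147 and 313 CPM against 6.85, 15.1 and 75.6 CPM (log2 -2.92 ± 0.70, edgeR adjusted p = 0.00175). Of its san:san libraries replicate 3 was the highest, and it held 7 of the 10 counts. miR-466g, whose name carries no arm, had 3, 8 and 3 counts for WT and 7, 8 and 4 for san:san (log2 -1.86 ± 0.52, adjusted p = 0.00506). Its call ended without WT replicate 2 (adjusted p = 0.0842, and up to 0.0266 under its other alternatives). Both miR-466c-5p and miR-466g passed the filter through the WT libraries alone, which favours a fall.

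The row of miR-467a-3p and miR-467d-3p was the one that did not pass with TMM scaling. It was at 296, 205 and 157 CPM for WT and 61.7, 114 and 119 CPM for san:san, at log2 -1.10 ± 0.52 (edgeR adjusted p = 0.0750). With RLE factors it passed (log2 -1.33, adjusted p = 0.0410), as it did with total counts (-1.62, 0.0145) and when the 5 most abundant rows were kept out of the library sizes (-1.37, 0.0349). Over all its alternatives the adjusted p reached 0.237. In all 9 rows, the passing and the not passing, every WT library lay above every san:san library, which held for 30.6% of all tested rows. For the 6 rows that passed the filter through WT alone, the filter itself favours this order. The overlapping miR-466 rows are among the others. The share among all rows that passed through WT alone was not computed.

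**Figure D2:**
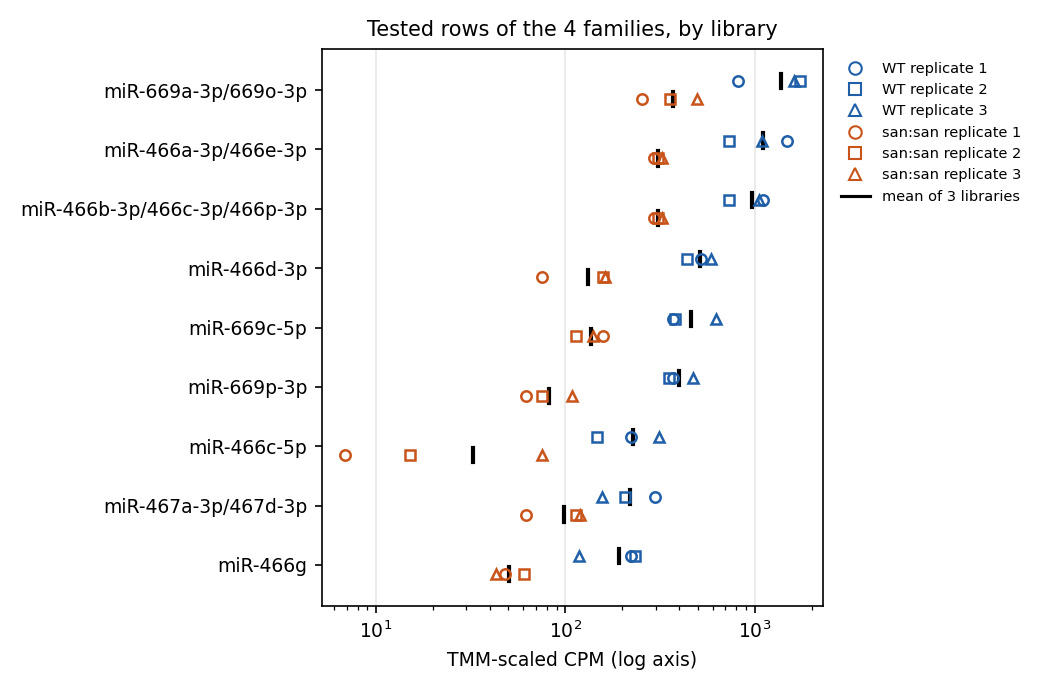
TMM-scaled CPM (log axis) of the 9 tested member rows, 1 point per library with a bar at the mean of 3. WT libraries (blue) lie above the san:san libraries (orange) in each row, from miR-669a-3p with a WT mean of 1383 CPM to miR-466g with 191 CPM.

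**Figure D3:**
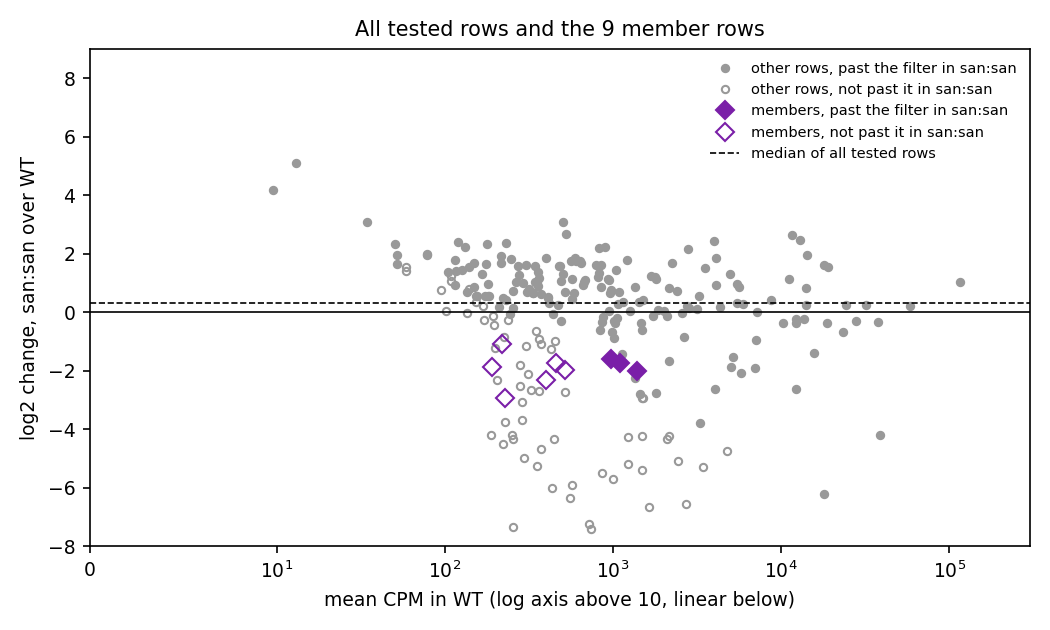
Log2 change in san:san over WT against the mean CPM in WT (log axis above 10) for all 245 tested rows, with the 9 member rows as diamonds and open symbols for rows that did not reach the count filter in all san:san libraries. The members lie between -2.92 and -1.10, the dashed line marks the median of 0.30, and 6 of the 9 members are open.

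The remaining 45 names formed 37 rows with 1 to 34 counts over all libraries, and 18 of these rows had 3 counts or fewer. They are described as a pool without a test, and the pool is itself made of rows that failed the filter. The pool held 17, 37 and 47 counts for WT and 40, 44 and 38 for san:san, or 1257, 1086 and 1840 CPM against 274, 333 and 410.6 CPM, a 4.11-fold difference in means with no overlap. By mean CPM, 30 of the 37 rows were lower in san:san and 7 were higher, and the 7 that were higher had 0 counts in WT. Conversely, 9 rows had 0 counts in san:san. A single count weighed more CPM in WT than in san:san, so the direction of rows with few counts depends on depth. The same pool and shares over the other untested rows of the table were not computed. The difference of the pool and these row counts are therefore a description only. The largest of the pool was the row of miR-297a-3p, miR-297b-3p and miR-297c-3p, with 2, 2 and 5 counts for WT and 7, 10 and 8 for san:san.

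At equal depth fewer member rows were expected in san:san than in WT. The libraries as sequenced held 17, 27 and 35 member rows for WT and 26, 25 and 27 for san:san. At the smallest library total of 12183 merged counts, the number expected from the hypergeometric formula was 17.0, 20.4 and 27.4 for WT against 8.18, 9.40 and 10.1 for san:san. Over all miRNAs the same formula gave 325, 364 and 363 rows for WT against 277, 274 and 275 for san:san. Fewer rows were thus expected in san:san over all miRNAs too, and whether the members differ from the rest in this was not tested.

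**Figure D4:**
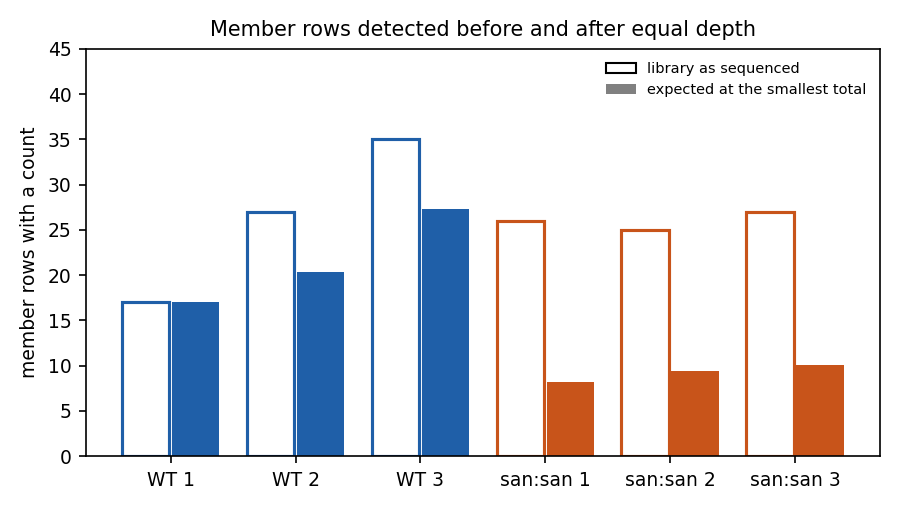
Number of member rows with at least 1 count in each library as sequenced (open bars) and expected at the smallest library total of 12183 counts (filled bars). The open bars overlap between the genotypes, and the filled bars run from 17.0 to 27.4 in WT and from 8.18 to 10.1 in san:san.

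The balance of the arms is a comparison within each library, so library scaling cannot move it. For miR-669, 5p arms made up 32.3%, 26.2% and 31.7% of the counts with a named arm for WT against 44.2%, 25.3% and 31.8% for san:san. The exact 95% binomial interval of the highest, in san:san replicate 1, was 33.5% to 55.3% and that of WT replicate 2 was 18.0% to 35.8%, so the intervals overlapped. For miR-466, the 5p share was 10.2%, 11.3% and 20.2% for WT against 2.88%, 3.67% and 11.1% for san:san, and the genotypes overlapped. The 3p counts of miR-466 hold both overlapping rows, and reads counted in both would lower this share. For miR-467 it ranged from 0% to 55.6% in WT on 5 to 11 counts per library and from 18.8% to 47.2% in san:san. Such intervals cover counting error only.

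The relative weight of the 2 main 3p rows varied between WT libraries. miR-669a-3p made up 35.5% of the sum of miR-669a-3p and miR-466a-3p in WT replicate 1 (exact 95% interval 19.2% to 54.6%), 70.2% in replicate 2 (59.3% to 79.7%) and 59.4% in replicate 3. In san:san it was 46.3%, 53.4% and 60.5%. The intervals of WT replicates 1 and 2 did not overlap, whereas the san:san values lay inside the WT range.

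Other lists were set beside these families for orientation only. Of 10 tested rows with other rodent repeat-type names (miR-3473, miR-1946, miR-690 and similar), all 10 were lower, beside 29.0% of all tested rows. Their median log2 change was -5.64. Of the 10, 9 passed the filter through WT alone, and 85.2% of all rows that did so were lower. Of 27 tested rows of the cluster from miR-379 to miR-410, another imprinted group, 17 were higher and 0 lower with TMM, beside 35.1% higher among all tested rows, with a median of 1.23. With total counts 7 of these 27 were higher and 0 lower, beside 49 of all 245 tested rows higher. Of the 6 other names in the table with a GUGUGUG or CACACAC run, 2 could be tested, both arms of 1 hairpin. They are shown here with the seed in capitals and were chosen by that run only.
miR-574-5p: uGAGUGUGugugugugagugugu
miR-574-3p: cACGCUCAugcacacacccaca
They lie at chr5:64970328-64970350 and chr5:64970364-64970385 on the plus strand of GRCm38.p6. miR-574-5p had 25, 25 and 31 counts for WT and 164, 151 and 126 for san:san (log2 0.05 ± 0.29, edgeR adjusted p = 0.895), a value that turned negative with RLE factors (-0.20), total counts (-0.47), TMMwsp (-0.040) and the trimmed library sizes (-0.22). miR-574-3p, with 29, 72 and 64 counts for WT and 991, 963 and 729 for san:san, rose by log2 1.70 ± 0.21 (adjusted p = 2.64e-06).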

How the data were processed

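The authors deposited raw counts for each mature miRNA name in 1 table, and scaled values per sample that were not used here. Per the submitters' processing notes, the build is mm9. The aligner, trimming and annotation version were not given in the sources used here. That table held 0 columns from other samples. Rows identical in all 6 libraries with at least 10 counts were merged (14 names removed, 693 rows left). The 245 rows past filterByExpr (minimum count 10, about 137 CPM in 3 libraries) were tested with edgeR 4.0.16 in R 4.3.3 by the quasi-likelihood test with TMM scaling and robust dispersion estimates. Genotype was the single term, and p-values were adjusted over all 245 by the Benjamini-Hochberg method. SE is the log2 change divided by the square root of F. The procedure was also run on simulated counts in which every row had the same dispersion. That checks the running of the procedure and not the calls of low-count members. Family sums, merged within family and arm, are descriptions without a test. Limits that a count of 0 allows take 3 counts.

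Every tested member row could be named, with the top row of each family and arm and up to 5 tested other miRNAs with the searched runs. Members and lists were chosen with earlier results of these data known. Alternatives were RLE, total-count, TMMwsp and trimmed library sizes, no filter, a minimum count of 30, unmerged rows, DESeq2 1.42.0, a replicate block, thinning to the smallest total, the highest row in place of a sum, and leaving out each library. Reference annotations were of GRCm38 and gave no coordinates of the authors' reads.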

Additional observations from a re-analysis of the deposited data

How the results depend on the processing

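Counts of single members are small, and WT depth limits them: 3 counts were worth 88.0 to 222 CPM in WT. The number of member rows lower in san:san, 8 with TMM, was 4 with a minimum count of 30 and 2 in thinned libraries, where fewer rows could be tested (4 and 2, all lower). It was 12 of 14 names with unmerged rows and 11 of 50 rows with no filter. With a WT library left out it was 7 or 8 of 10 tested rows. With a san:san library left out it was 6 of 6, and miR-466c-5p, miR-466g and the miR-467a-3p row could not be tested. No member row was higher in any alternative (0 at each). Scaling moved the median of all tested rows from 0.30 with TMM to -0.23 with total counts. The median of the members relative to it lay between -2.16 and -2.15 with TMM, RLE, total counts, TMMwsp and trimmed library sizes. A change of scaling moves every row by nearly the same amount, so this narrow range follows from the method and is no support for the members' values. With total counts the level of all members was at log2 -2.40 (-1.88 with TMM), miR-466 3p at -2.33 (-1.81) and miR-669 5p at -2.39 (-1.86). The level of miR-467 5p, -0.54, turned to 0.29 without WT replicate 3 and ranged down to -1.26 with another library left out. With a library left out the other levels ranged from -2.02 to -1.76 for all members, -1.98 to -1.68 for miR-466 3p, -4.17 to -2.58 for miR-466 5p, -2.36 to -1.89 for miR-669 3p, -2.05 to -1.62 for miR-669 5p, -1.26 to -0.59 for miR-467 3p and -1.29 to -0.56 for miR-297 3p. Values of miR-574-5p (0.05 with TMM) were below 0 with RLE factors (-0.20), total counts (-0.47), TMMwsp (-0.040) and trimmed library sizes (-0.22), and were -0.26 with a minimum count of 30, -0.24 with DESeq2, -0.55 in thinned libraries, and from -0.43 without WT replicate 2 to 0.22 without WT replicate 1. With the replicate number as a replicate block, 8 member rows were lower and 0 higher. Same-numbered libraries correlated at 0.12, -0.096 and 0.26 in their deviations from the genotype means, so the numbers were not taken as pairs.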

Other observations

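The members named here, with few or 0 counts in san:san, were chosen for mention after their values were seen. miR-466i-5p, from a hairpin outside Sfmbt2, had 2, 2 and 3 counts in WT and 0 in each deeper san:san library. With 3 counts over the san:san group taken as the limit for a count of 0, and the WT counts taken as exact, its scaled level was at least 11.8-fold lower in san:san. The exact 95% counting interval of the ratio, which covers counting error in both genotypes, began at 7.30. miR-669c-3p, the partner arm of the tested miR-669c-5p, had 4, 0 and 1 counts in WT and 0 in san:san, at least 8.44-fold lower on the same basis and 4.64-fold at the lower end of the exact interval, but 4 of its 5 counts came from WT replicate 1. miR-669l-5p, with 7 counts in WT and 3 in san:san, stood at a scaled ratio of WT over san:san of 11.8, with an exact 95% counting interval of 2.70 to 70.8. These intervals and limits do not cover the spread between replicates.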
